A study of Homo sapiens with 24 samples.

Results

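Histone genes were described in the RNAseq libraries of G1/S-arrested cells in which the replication licensing factor MCM7 had been knocked down. The genes were chosen by name and level. They carry a symbol that starts with HIST1H, HIST2H, HIST3H or HIST4H in GENCODE 29, are annotated as protein coding, and have at least 10 counts in at least 3 libraries of a cell line. Of 90 such symbols, 71 were protein coding and listed in the tables, and 43 of these met the count rule, out of 21386 genes listed in all. All 43 met it in A375 cells and 17 of them also in A549 cells. The other 28 reached no more than 15 counts in any library, and 6 of them were at 0 in every library. The 43 genes comprised 3 of 6 listed H1 genes, 9 of 17 H2A genes, 14 of 18 H2B genes, 9 of 15 H3 genes and 8 of 15 H4 genes. They lie in the HIST1 cluster on chromosome 6 (34 genes), in HIST2 and HIST3 on chromosome 1 (6 and 2 genes) and in HIST4 on chromosome 12 (1 gene).

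The study used A375, a melanoma line, and A549, a lung cancer line, each as parental cells and as cells carrying an MCM7 shRNA (shMCM7 cells). The shRNA stood under a doxycycline (Dox) inducible promoter in the lentiviral vector pRSIT17, and the transduced cells were a puromycin-selected population. The control cells of these libraries were the parental lines. All cells, parental ones included, were synchronized by double thymidine block, and Dox was given at 1 μg/ml over 72 hours or left out (noDox). Each of the 4 groups per line had 3 libraries, described by the study as biological replicates, so that p-values measure the spread between these samples.

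Replication-dependent histone genes supply the proteins that wrap newly made DNA. H2A, H2B, H3 and H4 form the core of the nucleosome, and H1 binds the linker DNA. Their mRNAs are made mainly in S phase, most end in a conserved stem-loop in place of a poly(A) tail, and they are known to be degraded when DNA synthesis stops, as it does under excess thymidine. Some histone genes also give longer transcripts that end in a poly(A) tail. Whether the libraries held RNA selected by its poly(A) tail is not given in the sources used here, and its part in the levels was not tested.

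The stem-loop site is shown for 6 genes because it marks the regular end of these mRNAs and because the 6 cover every form found. The sites were read from GENCODE 29 (GRCh38) transcripts after the stop codon. Each is a 6-base stem, a 4-base loop and 6 bases that pair with the stem, in capitals, with 5 flanking bases on each side. The search required GG at the start, CC at the end and T at fixed places in the loop. At most 1 stem position could be unpaired, as in HIST1H2AG. The sites lie at chr1:228457364-228457389 on the minus strand for HIST3H2A, chr6:26158582-26158607 (plus) for HIST1H2BD, chr6:26225591-26225616 (plus) for HIST1H3E, chr6:26285126-26285151 (minus) for HIST1H4H, chr6:27139649-27139674 (plus) for HIST1H4I and chr6:27133510-27133535 (plus) for HIST1H2AG.
HIST3H2A: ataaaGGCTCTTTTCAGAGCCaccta
HIST1H2BD: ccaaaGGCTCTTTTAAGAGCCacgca
HIST1H3E: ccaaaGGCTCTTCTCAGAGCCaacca
HIST1H4H: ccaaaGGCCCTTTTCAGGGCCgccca
HIST1H4I: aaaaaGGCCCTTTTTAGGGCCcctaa
HIST1H2AG: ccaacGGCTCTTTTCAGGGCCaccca
Of the 43 genes, 24 had such a site in an annotated transcript, between 23 and 56 bases after the stop codon (median 35), in 6 distinct forms. The form of HIST3H2A was the commonest, with 13 genes. In the other 19 genes the annotation held no site, and most of these have an annotated transcript that ends at the stop codon. For 22 of the 43 genes the annotation runs more than 200 bases past the stop codon or stem-loop, and 11 have a spliced coding transcript. Where reads lie within a gene was not examined.

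The A375 libraries were deeper, with 146656792 to 283721575 counts against 17911338 to 23452823 in A549, and 3 counts stood at 0.0106 to 0.0205 and 0.128 to 0.167 CPM, respectively, which covers counting error only. CPM is the normalized read count used here, scaled by the library total and edgeR's TMM factor. A375 libraries held SOX10 at 501 to 677 CPM and S100B at 25.1 to 35.2 CPM, whereas both were at 0 in all 12 A549 libraries. The pigment gene MLANA was at 0 in 11 of the 12 A375 libraries. The melanocyte gene MITF did not separate the lines, at 26.7 to 45.1 CPM in A375 and 35.7 to 51.9 CPM in A549. The keratins KRT8 and KRT18 were present in A375 too, at 60.6 to 93.9 and 200 to 367 CPM. In A549 they were at 1828 to 2757 and 1630 to 2395 CPM. The keratin KRT7 was at 1708 to 2332 CPM in A549 and at 13.9 to 25.5 CPM in A375, and CDH1 was at 55.3 to 94.2 and 0.0453 to 0.160 CPM. MCM7, the target of the shRNA, was at 76.8, 76.4 and 77.2 CPM in A375 shMCM7 cells with Dox. Without Dox it was at 353 and 359 CPM in replicates 2 and 3 but at 131 CPM in replicate 1, and in parental cells it lay between 342 and 370 CPM. In A549 the 3 libraries with low MCM7 were those labelled parental noDox 2 (88.6 CPM), shMCM7 Dox 3 (95.3 CPM) and shMCM7 noDox 2 (99.7 CPM), against 299 to 339 CPM in the other 9. MCM7 thus goes against the A549 labels, which were kept, and the A549 groups are called as labelled throughout.

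In A375 the histone genes were carried by a few members. In each of the 4 groups the 5 highest were HIST1H1C, HIST3H2A, HIST1H2BK, HIST1H2AC and HIST2H2BE, and they held between 63.4% and 65.5% of the summed CPM. HIST1H1C, which encodes the linker histone H1.2, led in shMCM7 noDox cells with 19.99% and in parental cells with 20.5% with Dox and 20.9% without. In shMCM7 cells with Dox HIST3H2A led with 17.6%, and HIST1H1C held 13.0%. Per kb of annotated exon, averaged over the 12 libraries, HIST1H2BK was highest with 13.97 CPM per kb, followed by HIST1H1C with 11.6 and HIST3H2A with 6.69. The order in A549 was alike at the top, with HIST1H2BK at 21.6, HIST1H1C at 20.3 and HIST1H2AC at 7.17 CPM per kb. The annotated length of a gene such as HIST1H2BK (381 bases, its coding part only) is shorter than its mRNA, so these per-length levels depend on the annotation.

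The main question was which histone genes changed when the shRNA was induced. In A375 shMCM7 cells, 22 of the 41 histone genes tested were up-regulated with Dox and 0 were down-regulated (edgeR's quasi-likelihood test, at least 1.5-fold with p under 0.01 and FDR under 0.05). Over all 16087 genes tested, 5.58% were up-regulated and 6.45% were down-regulated. Of the 41, 40 had a log2 fold change above 0, with a median of 0.75, beside a median of 0.00448 over all genes. HIST1H3B and HIST1H4D had too few counts to be tested. HIST1H4D was at 0.0384, 0.0379 and 0.0298 CPM with Dox and at 0.0767, 0.0534 and 0.0352 CPM without. HIST1H3B was at 0.0349, 0.0162 and 0.0511 CPM with Dox and at 0.0181, 0.0631 and 0.0313 CPM without. HIST2H3D, HIST1H4I and HIST1H2AK were tested because of their Dox libraries. The part of the filter on low counts in the count of 40 was not tested. Core histone genes of every class were among the 22: 5 of 9 tested H2A genes, 9 of 14 H2B genes, 4 of 8 H3 genes and 4 of 7 H4 genes, against 0 of 3 linker H1 genes, of which 1 had an unadjusted p under 0.05. The count fell to 14 without shMCM7 Dox replicate 1, without shMCM7 Dox replicate 2 or without shMCM7 noDox replicate 3, and it was 18 without the noDox library with reduced MCM7. In bulk RNA, fewer cells of a kind and less RNA per cell cannot be told apart, and this holds for the rises described here. Among marker genes of the lines, EPCAM, at 0.274 to 0.837 CPM in A375, rose in the same comparison (log2 1.05, SE 0.18, FDR 0.00152). PMEL, at 1.91 to 5.24 CPM, fell by 0.92 (SE 0.19, FDR 0.00388). Other markers of the same kinds went the other way. The melanocyte gene MITF was at 37.3, 45.1 and 44.5 CPM with Dox and at 30.7, 34.6 and 34.7 CPM without. The epithelial gene CDH1 was at 0.0453, 0.0812 and 0.0980 CPM with Dox and at 0.104, 0.160 and 0.102 CPM without. The part of these markers in the histone result was not tested.

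Among H2A genes, which encode the partner of H2B in the nucleosome core, HIST3H2A (chr1:228456979-228457873) had the highest level. With Dox it was at 14.2, 9.45 and 12.2 CPM in shMCM7 cells, and without Dox at 5.27, 4.48 and 3.32 CPM. In parental cells it lay between 3.34 and 3.83 CPM with Dox and between 3.66 and 4.35 CPM without. All 3 Dox libraries of shMCM7 cells were above the other 9 libraries, and the rise was 2.74-fold (log2 1.46, SE 0.18, FDR 0.000301). HIST1H2AC (chr6:26124145-26139116) was at 8.76, 8.07 and 7.78 CPM with Dox and at 4.74, 3.65 and 3.18 CPM without, beside 2.61 to 3.52 CPM in parental cells. The groups did not overlap here either, and the rise was 2.13-fold (log2 1.09, SE 0.14, FDR 0.00031). HIST1H2AG was at 1.16, 0.915 and 1.01 CPM with Dox and at 0.627, 0.689 and 0.547 CPM without, and rose 1.67-fold (FDR 0.00481). HIST1H2AE and HIST1H2AK also passed, with log2 fold changes of 0.92 and 1.45. HIST1H2AK lies within HIST1H2BN on the opposite strand and shares 100% of its 50-base words with it, had 57, 28 and 45 counts with Dox and 6, 26 and 13 without, and is uncertain. By its noDox libraries alone HIST1H2AK did not meet the filter on low counts, and its Dox libraries brought it into the test.

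**Figure D1:**
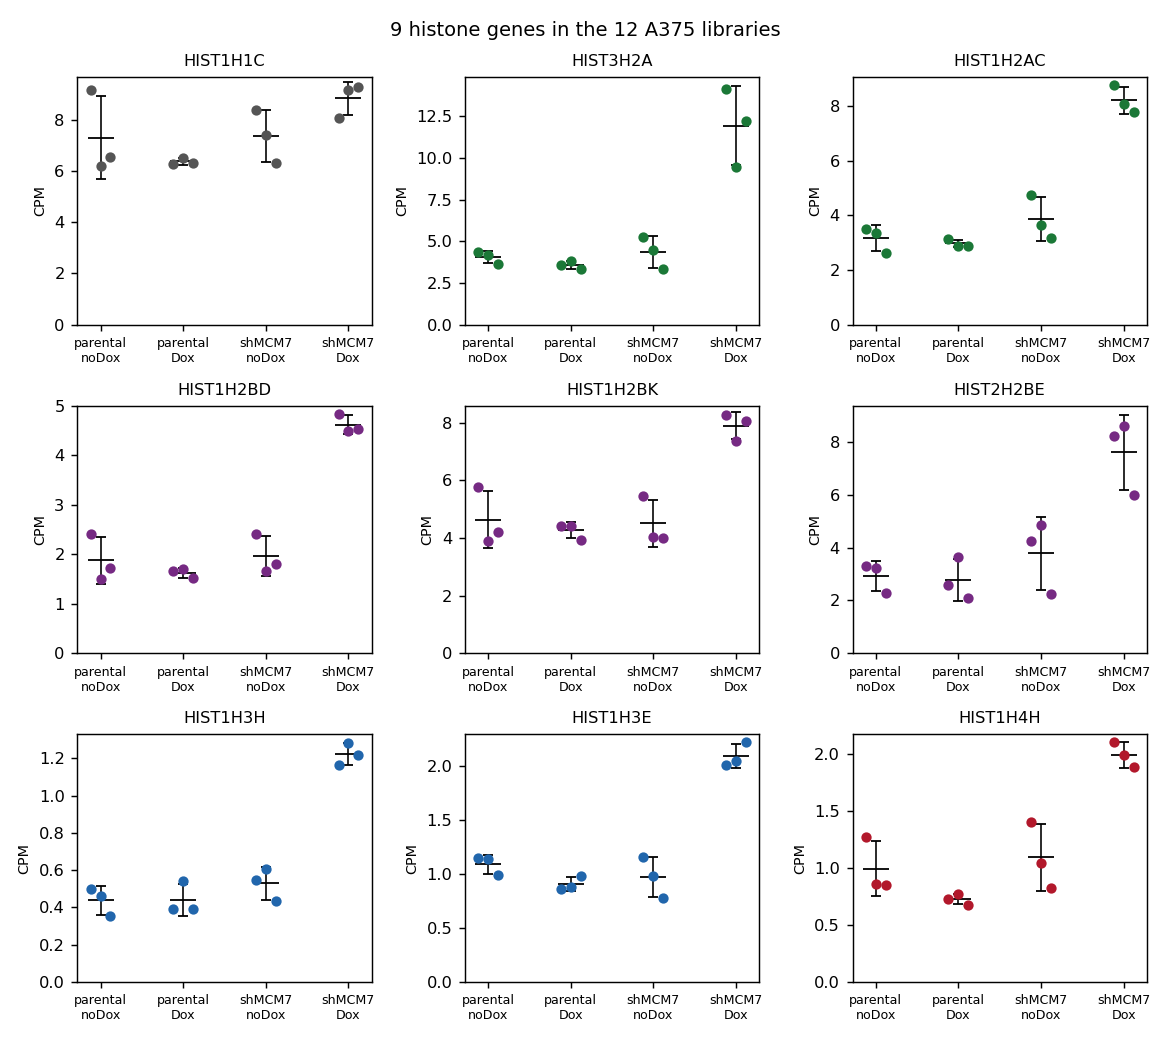
CPM of 9 histone genes in the 12 A375 libraries (points), with the mean and SD of the 3 libraries of each group (bars). In 8 of the genes the 3 shMCM7 Dox libraries lie above the other 9, whereas in HIST1H1C, at 8.08 to 9.26 CPM with Dox, the groups overlap. The 9 genes are a selection. Of all 43 histone genes 23 had the 3 libraries above the other 9, beside 19.5% of all genes tested.

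Among H2B genes, the most numerous class here, HIST1H2BD (chr6:26158146-26171349) had the smallest p-value. It was at 4.83, 4.48 and 4.52 CPM with Dox in shMCM7 cells and at 2.42, 1.67 and 1.80 CPM without, while parental cells ranged from 1.51 to 2.41 CPM. It rose 2.35-fold (log2 1.23, SE 0.14, FDR 0.000188). HIST1H2BK (chr6:27146418-27146798) was at 8.26, 7.37 and 8.05 CPM with Dox and at 5.46, 4.04 and 4.02 CPM without, beside 3.91 to 5.77 CPM in parental cells. The groups did not overlap, and the rise was 1.75-fold (log2 0.81, SE 0.12, FDR 0.000921). Of the 50-base words of HIST1H2BK, 74.1% occur in other genes, most of all in H2BFS, a near-identical copy that was at 0 counts in all 24 libraries. HIST1H2BJ and HIST1H2BO also share words with it. HIST2H2BE (chr1:149884459-149886652), a gene with an annotated 2194 bases of exon, was at 8.24, 8.63 and 6.003 CPM with Dox. Without Dox it was at 4.24, 4.88 and 2.24 CPM, a wide spread, and its 2.02-fold rise had an FDR of 0.0098. The call of HIST2H2BE was lost without shMCM7 Dox replicate 2.

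The other H2B genes that passed rose by log2 values between 0.61 and 0.97. They were HIST2H2BF (0.97, SE 0.19), HIST1H2BN (0.86, SE 0.19), HIST1H2BE (0.86, SE 0.24), HIST1H2BJ (0.83, SE 0.17), HIST1H2BH (0.71, SE 0.19) and HIST1H2BC (0.61, SE 0.19). HIST2H2BF overlaps FCGR1A on the opposite strand by part of its exons and HIST1H2BN overlaps HIST1H2AK and HIST1H2AL, so their counts may be shared. HIST1H2BG, HIST1H2BF and HIST1H2BO had log2 values of 0.58, 0.82 and 0.75 and did not pass. HIST3H2BB did not pass, at 0.886, 0.850 and 0.677 CPM with Dox and 0.686, 0.811 and 0.504 CPM without (log2 0.27, FDR 0.291).

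H3 is the core histone whose tail carries many of the known chromatin marks. HIST1H3H (chr6:27810064-27811300) was at 1.16, 1.28 and 1.22 CPM with Dox in shMCM7 cells and at 0.546, 0.607 and 0.434 CPM without, while parental cells ranged from 0.351 to 0.541 CPM. The rise was 2.31-fold (log2 1.21, SE 0.16, FDR 0.000378). HIST1H3E (chr6:26224199-26227473) was at 2.01, 2.05 and 2.22 CPM with Dox and at 1.15, 0.981 and 0.778 CPM without, and rose 2.16-fold (log2 1.11, SE 0.15, FDR 0.000491). In both genes the Dox libraries of shMCM7 cells stood above all other A375 libraries. HIST2H3PS2 rose 1.66-fold (FDR 0.0244), but all of its 50-base words occur in another gene. HIST2H3D had the largest fold change of the 41, 2.95-fold (log2 1.56, SE 0.41, FDR 0.0123), on 37, 14 and 15 counts with Dox against 6, 7 and 8 without. Its noDox libraries alone did not meet the filter on low counts, so it was tested because of its Dox libraries. HIST1H3C was the gene below 0, with a log2 value of -0.22 (SE 0.35, FDR 0.643).

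For H4, the partner of H3, HIST1H4H (chr6:26277609-26285638) had the highest level. It was at 2.10, 1.99 and 1.88 CPM with Dox and at 1.40, 1.04 and 0.825 CPM without, beside 0.676 to 1.27 CPM in parental cells, and rose 1.82-fold (log2 0.87, SE 0.18, FDR 0.00429). HIST4H4, the gene on chromosome 12, was at 0.924, 0.991 and 0.814 CPM with Dox and at 0.555, 0.524 and 0.559 CPM without (1.66-fold, FDR 0.00334). Both genes had the 3 Dox libraries of shMCM7 cells above the other 9. HIST1H4K rose 1.87-fold (FDR 0.00841), though all of its 50-base words also occur in HIST1H4J, and HIST1H4I rose 2.36-fold (FDR 0.0168) on 26, 15 and 23 counts against 11, 5 and 10. In HIST1H4I the parental libraries, at 4 to 29 counts, overlap those of induced shMCM7 cells. HIST1H4I did not meet the filter on low counts by its shMCM7 noDox libraries alone, and was tested because of its Dox libraries.

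None of the linker histone H1 genes passed. HIST1H1C (chr6:26055787-26056428), the histone gene with the highest mean CPM in every A375 group but shMCM7 Dox, was at 8.08, 9.14 and 9.26 CPM with Dox in shMCM7 cells and at 8.37, 7.41 and 6.32 CPM without. The parental noDox libraries reached 9.16 CPM, so the groups overlap, and the log2 value of 0.26 (SE 0.11) had an FDR of 0.0836. HIST1H1D and HIST1H1E had log2 values of 0.62 and 0.34 with FDRs of 0.103 and 0.32. Whether H1 genes differ from core histone genes was not tested.

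Of the 22 genes, 12 passed in every alternative fit that was checked gene by gene and without any of the 6 libraries in turn. Those fits used DESeq2's size factors, its Wald test, all 12 libraries or a replicate block, and the other filters were not checked by gene. The 12 genes were HIST3H2A, HIST1H2AC, HIST1H2AG, HIST1H2BD, HIST1H2BJ, HIST1H2BK, HIST1H2BN, HIST2H2BF, HIST1H3E, HIST1H3H, HIST1H4H and HIST4H4. The other 10 lost their call in at least 1 fit that left out a library. Across all 12 A375 libraries, 23 of the 43 genes had the 3 shMCM7 Dox libraries above the other 9 and 0 had them below, beside 19.5% and 21.3% of all genes tested.

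**Figure D2:**
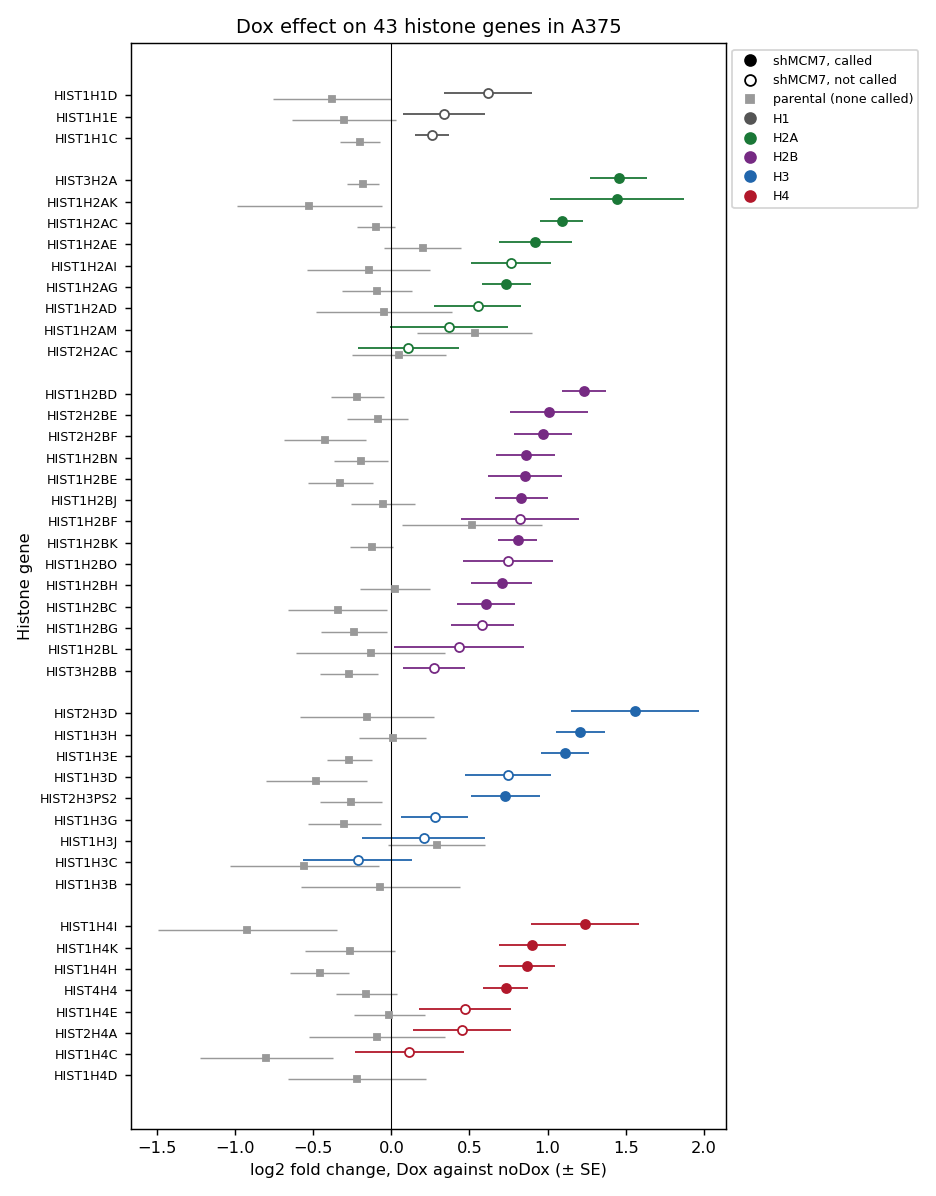
Log2 fold change of each histone gene with Dox against noDox in A375 shMCM7 cells (circles, filled where called) and in parental cells (grey squares), with SE bars, grouped by class. Filled circles occur in the classes H2A, H2B, H3 and H4, and the parental values lie mostly to the left of 0.

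Parental cells served as the control for Dox itself. In A375 parental cells, 0 of 42 histone genes tested passed in either direction by edgeR, 1 had an unadjusted p under 0.05, and 0% of all genes were called either way. DESeq2 called 0 as well, but gave no adjusted p for 18 of the histone genes. The histone genes lay below 0 in 35 of 42 cases, with a median log2 value of -0.19 beside -0.000641 over all genes. HIST1H4H was the gene with an unadjusted p under 0.05, at 0.728, 0.770 and 0.676 CPM with Dox and 1.27, 0.853 and 0.851 CPM without (log2 -0.46, SE 0.19, FDR 0.666). Parental noDox replicate 1 was the highest of the 6 libraries in the summed CPM of all 43 genes, with 40.9 CPM, against 29.2 to 33.2 CPM in the other 5.

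The Dox effects of shMCM7 and parental cells were set against each other in 1 fit of all 12 A375 libraries. The difference passed upwards for 16 of 43 genes and downwards for 0, beside 4.37% and 6.17% of all 16334 genes. All 16 were among the 22 genes up-regulated with Dox in shMCM7 cells. HIST3H2A differed by a log2 value of 1.64 (SE 0.23, FDR 0.000181), HIST1H3E by 1.38 (SE 0.20, FDR 0.000263), HIST1H2BD by 1.45 (SE 0.23, FDR 0.000536) and HIST1H2AC by 1.19 (SE 0.19, FDR 0.000577). The 6 genes up-regulated in shMCM7 cells whose difference did not pass were HIST1H2AE, HIST1H2AG, HIST1H2AK, HIST1H2BC, HIST1H2BH and HIST2H2BE. For HIST2H2BE the log2 difference was 1.10 with an SE of 0.37 and an FDR of 0.0374, and its p was not under 0.01. Without the noDox library with reduced MCM7, 16 genes passed, of which 14 were the same.

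Induced shMCM7 cells were also set against parental cells that had received Dox. Of 41 genes tested, 26 were higher in shMCM7 cells and 0 lower, beside 7.64% and 8.39% of all genes. This comparison uses the same induced libraries as the one within shMCM7 cells, so the counts are not independent. HIST1H2AC was 2.77-fold higher (FDR 3.96e-06), HIST1H2BD 2.85-fold (FDR 6.67e-06) and HIST3H2A 3.33-fold (FDR 2.14e-05). An H1 gene passed here, HIST1H1E, at 0.195, 0.233 and 0.183 CPM in induced shMCM7 cells and 0.0763, 0.109 and 0.0642 CPM in parental cells with Dox (2.42-fold, FDR 0.00409). HIST1H1E was at 0.217 CPM in shMCM7 noDox replicate 1, within the range of the induced libraries. HIST1H2AI, HIST1H2BF, HIST1H2BG, HIST1H2BO, HIST1H3D, HIST1H4E and HIST3H2BB also passed here and not within shMCM7 cells, with log2 values between 0.69 and 1.49. HIST1H2BH, HIST1H4K, HIST2H3D and HIST2H3PS2 passed within shMCM7 cells and not here.

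Without Dox, shMCM7 and parental A375 cells were compared to see whether carrying the vector moved these genes. In shMCM7 noDox replicate 1 MCM7 was reduced, at 131 CPM, so the comparison may not show the vector alone. Of 42 genes tested, 0 passed by edgeR, beside 1.17% higher and 0.478% lower of all genes. DESeq2 also called 0, with no adjusted p for 5 of the histone genes. HIST1H2BO was the gene with an unadjusted p under 0.05, with a log2 value of 1.06 (SE 0.47, FDR 0.291). The median log2 value was 0.04, with 23 genes above 0 and 19 below. HIST3H2A, at 3.32 to 5.27 CPM in shMCM7 cells and 3.66 to 4.35 CPM in parental cells, overlapped between the groups (log2 0.10, SE 0.15). The value of 5.27 CPM was that of shMCM7 noDox replicate 1.

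Summed over the 43 genes, A375 shMCM7 cells with Dox stood at 72.4, 66.0 and 65.2 CPM. The noDox libraries of the same cells were at 43.1, 37.7 and 29.8 CPM, of which the first is the library with MCM7 at 131 CPM, and the parental libraries lay between 29.2 and 40.9 CPM. The H2A genes summed to 25.5, 19.7 and 22.3 CPM with Dox and to 11.5, 9.56 and 7.68 CPM without. The H3 genes summed to 5.37, 4.96 and 5.12 CPM with Dox and to 3.02, 3.03 and 2.16 CPM without. In these sums the induced libraries were the 3 highest of 12 for H2A, H2B, H3 and H4, and in H1, at 8.51, 9.52 and 9.59 CPM, they overlapped with shMCM7 noDox 1 (8.70 CPM) and parental noDox 1 (9.36 CPM). These sums are descriptions without a test.

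**Figure D3:**
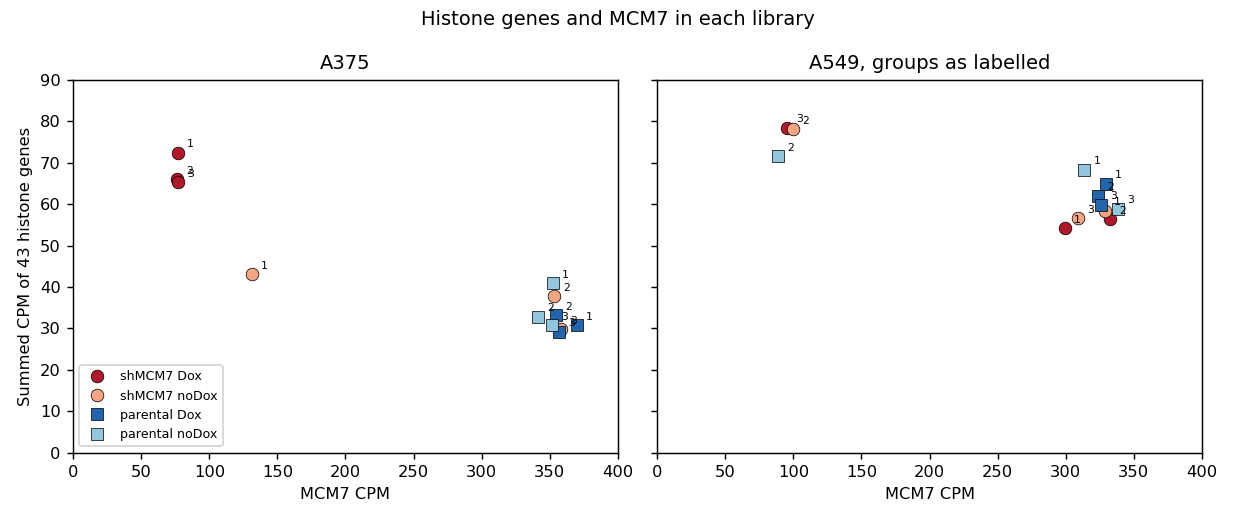
Summed CPM of the 43 histone genes against the CPM of MCM7 in each library of A375 (left) and A549 (right, groups as labelled), with replicate numbers beside the points. The 3 A375 shMCM7 Dox libraries lie at 65.2 to 72.4 CPM, and in A549 the 3 libraries with MCM7 under 100 CPM lie at 71.6 to 78.4 CPM, above the other 9.

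The calls were also counted by level and by annotation. A ranking over all libraries would include the rise itself, so the genes were ranked by their mean CPM in the 6 parental libraries, which the shMCM7 comparison does not use, a choice made after seeing the data. Of the 10 highest, 9 were up-regulated with Dox in shMCM7 cells, with HIST1H1C as the exception. Among ranks 11 to 25 the count was 10 of 15, and among the remaining 16 genes, with a median level of 0.0823 CPM, it was 3. Ranked by the shMCM7 noDox libraries, the counts were 7 of 10, 12 of 15 and 3 of 16, and HIST1H2BG and HIST3H2BB were then among the 10 highest that did not pass. Genes annotated more than 200 bases past the stop codon or stem-loop passed in 16 of 22 cases, with a median log2 value of 0.84, and the others in 6 of 19, with a median of 0.62. The first group was also higher in level, with a median of 0.526 CPM against 0.0927 CPM in parental cells, and the part of level and of annotation in these counts was not tested. Of the 11 genes with a spliced coding transcript, 10 passed, and of the other 30 genes 12 did. The spliced genes were also higher in level, with a median of 0.577 CPM against 0.112 CPM in parental cells. The part of level in these counts was not tested either. Restricted to the 28 genes that share at most 50% of their 50-base words with another gene and no exon base with another counted gene, 15 passed, with a median of 0.73.

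**Figure D4:**
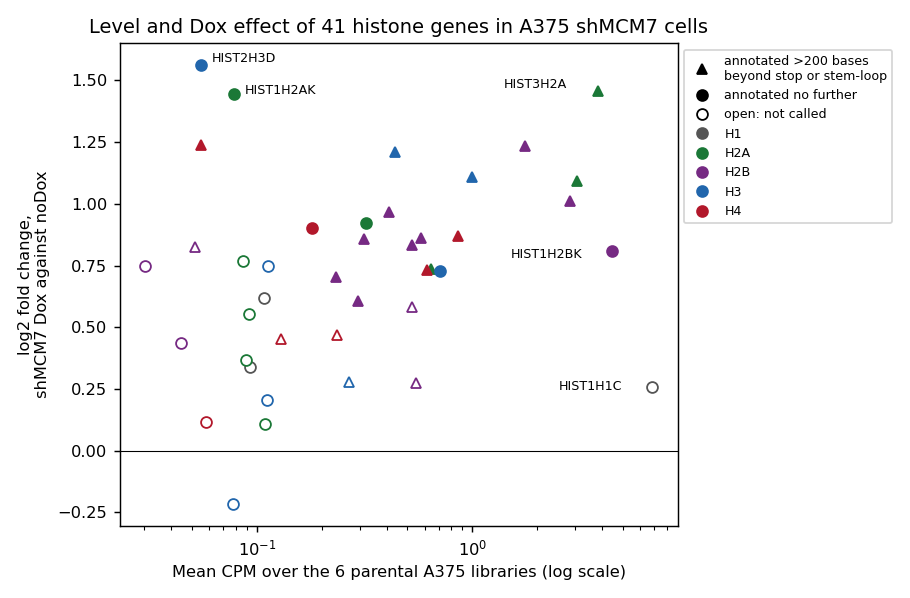
Log2 fold change with Dox in A375 shMCM7 cells against the mean CPM over the 6 parental A375 libraries (log axis) for the 41 genes tested, coloured by class. Triangles mark genes annotated more than 200 bases beyond the stop codon or stem-loop and open symbols genes that were not called, most of which lie at low levels.

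Many H2A and H2B genes stand head to head and share the stretch between them, and the octamer ATTTGCAT, the motif bound by POU2F1 (Oct-1), is known from H2B promoters. It was searched on both strands in RefSeq promoters (GRCh38.p14, 250 bases before to 50 after the start), which matched 41 of the 43 genes. It occurred in 10 of 14 H2B and 6 of 9 H2A promoters and in 0 of 18 H1, H3 and H4 promoters, beside 1.77% of all 34943 promoters. The windows of HIST2H2BE (chr1:149886711-149886738, minus strand), HIST1H2BK (chr6:27146887-27146914, minus) and HIST1H2BC (chr6:26124032-26124059, minus) are shown as examples with the octamer in capitals, since these H2B genes rose. The last is the same stretch that stands in the promoter of HIST1H2AC on the plus strand.
HIST2H2BE: cggagccctaATTTGCATaaggtggtta
HIST1H2BK: tcttcaccttATTTGCATgagaggtcct
HIST1H2BC: ttcatacctcATTTGCATagctctgccc
HIST1H2AC: gggcagagctATGCAAATgaggtatgaa
Genes with the octamer passed in 10 of 16 cases (median log2 0.78) and genes without it in 12 of 23 (median 0.75). The motif TATAAA was in 63.4% and CCAAT in 85.4% of the 41 promoters, beside 11.6% and 34.6% of all promoters, and CCAAT was in 1 of 7 H4 promoters. The E2F motifs TTTCCCGC and TTTGGCGC were in 0 of 41, beside 2.26% of all. A match is a description of letters, not of a bound site.

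The log2 values of head-to-head partners are set side by side here. Of 12 such pairs with starts at most 500 bases apart, 9 had both genes among the 43. HIST3H2A and HIST3H2BB start 234 bases apart, and their log2 values were 1.46 and 0.27. HIST2H2BE and HIST2H2AC, 323 bases apart, had 1.01 and 0.11. HIST1H2BJ and HIST1H2AG, 292 bases apart, had 0.83 and 0.74, and HIST1H2BC and HIST1H2AC, 219 bases apart, had 0.61 and 1.09, all 4 called. HIST1H2AE was called with 0.92, and its partner HIST1H2BG had 0.58. The other 4 pairs held no called gene. HIST1H2AD had 0.55 beside 0.82 for HIST1H2BF, and HIST1H2BL had 0.44 beside 0.77 for HIST1H2AI. HIST1H2BO, with 0.75, stands opposite both HIST1H2AM (0.37) and HIST1H3J (0.21). HIST1H2AM and HIST1H3J overlap by 346 exon bases on the same strand, so their counts may be shared and these pairs are not separate. The mean level of HIST2H2AC was 0.109 CPM against 4.28 CPM for HIST2H2BE, and the differences within pairs were not tested.

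Other genes of histone supply were taken as lists. Of 29 genes that regulate or process histone mRNA, 0 passed in either direction with Dox in A375 shMCM7 cells by edgeR or DESeq2, with 8 at an unadjusted p under 0.05 (27.6%, beside 51.5% of all genes) and a median log2 value of -0.01. Against parental Dox cells 1 of the 29 was lower, POU2F1 (log2 -0.63), beside 8.39% of all genes. POU2F1 was at 30.7, 31.6 and 29.2 CPM with Dox and at 37.8, 40.3 and 45.8 CPM without. In parental cells it lay between 42.7 and 53.4 CPM, and it was named after its values were seen. NPAT, the coactivator of histone gene transcription, was at 42.2, 47.2 and 40.7 CPM with Dox and at 40.4, 39.3 and 40.1 CPM without (log2 0.12, SE 0.06, FDR 0.165). SLBP, which binds the stem-loop, was at 74.0, 71.1 and 63.3 CPM with Dox and at 70.3, 68.4 and 68.2 CPM without (log2 0.01, SE 0.06). Of 12 replication-independent histone variant genes tested, 0 passed by either tool, with 6 of the 12 at an unadjusted p under 0.05, beside the same 51.5%, and a median of 0.000323. Without shMCM7 Dox replicate 2, 2 of them passed, H1F0 and H1FX. H1F0, which encodes the linker histone H1.0, passed against parental cells and was at 128, 113 and 128 CPM with Dox, 83.7 to 85.4 CPM without and 76.2 to 85.2 CPM in parental cells, a log2 value of 0.54 (SE 0.06, FDR 0.000181) just under the fold threshold, and was named after its values were seen.

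Of 21 histone chaperone genes, 2 were down-regulated with Dox in A375 shMCM7 cells and 0 were up-regulated, beside 6.45% and 5.58% of all genes, with a median log2 value of -0.12. A count of 2 is near the share over all genes. SSRP1, a subunit of the FACT complex that handles H2A and H2B, was at 223, 243 and 247 CPM with Dox and at 387, 493 and 492 CPM without. It fell by 0.95 on the log2 scale (SE 0.09, FDR 9.69e-05), and all 3 induced libraries were below the other 9. HJURP, the chaperone of the centromeric histone CENPA, was at 38.7, 37.5 and 34.1 CPM with Dox and at 59.1, 55.1 and 56.5 CPM without. It fell by 0.63 (SE 0.06, FDR 0.000102), and its call was lost without shMCM7 Dox replicate 3. The shMCM7 minus parental difference of the Dox effects passed for both, with log2 values of -0.99 and -0.60.

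In A549, by label, 0 of 16 histone genes tested passed with Dox in shMCM7 cells and 0 of 16 in parental cells, by edgeR or DESeq2 and with 0 at an unadjusted p under 0.05. Over all genes 0% were called in either comparison. Each of these labelled groups but parental Dox held a library with low MCM7. HIST1H1C was highest of the 17 genes in CPM, at 8.99 to 16.0 CPM, and HIST1H2AC followed, with 15.6 CPM in its highest library.

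Read by the level of MCM7, as a description of single libraries, some of the genes stood highest where MCM7 was low. HIST1H3H had 75, 61 and 52 counts in the libraries labelled shMCM7 Dox 3, shMCM7 noDox 2 and parental noDox 2, and 20 to 31 counts in the other 9. In CPM these were 3.20, 3.12 and 2.61 against at most 1.49. HIST2H2BE was at 7.60, 8.86 and 7.77 CPM in the same libraries and at 3.83 to 5.37 CPM in the others. HIST3H2A was at 4.48, 3.33 and 3.21 CPM, with 2.80 CPM as the next highest. HIST1H1C was at 15.9, 16.0 and 15.4 CPM, with 13.5 CPM as the next. These 4 of 17 genes had their 3 highest values in these libraries, beside 19.8% of all genes, a share near that of the 17.

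**Figure D5:**
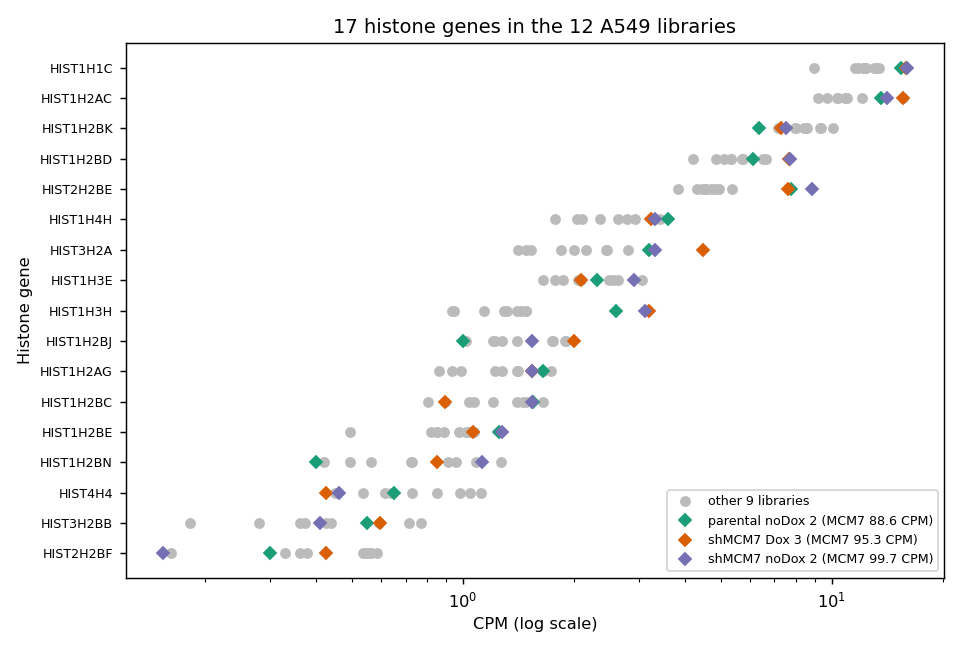
CPM (log axis) of the 17 histone genes that met the count rule in A549, in each of the 12 libraries, with the 3 libraries of low MCM7 as coloured diamonds. In HIST1H1C, HIST2H2BE, HIST3H2A and HIST1H3H the diamonds lie above the other 9 libraries, whereas in HIST1H2BK, HIST4H4 and HIST2H2BF they lie within or below them.

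The summed CPM of the 43 genes was 78.4 in shMCM7 Dox 3, 78.1 in shMCM7 noDox 2 and 71.6 in parental noDox 2, and 54.2 to 68.3 in the other 9 A549 libraries. HIST1H2BK, up-regulated in A375 shMCM7 cells with Dox, was at 7.30, 7.53 and 6.37 CPM in these 3 A549 libraries, and at 7.16 to 10.1 CPM in the others. HIST1H2BD was at 7.68, 7.74 and 6.12 CPM, and at 4.20 to 6.66 CPM in the others. No test was made on libraries sorted by MCM7, since MCM7 is itself measured in them.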

How the data were processed

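RNA of 24 libraries was sequenced by the authors, who deposited for each library a table of raw read counts per gene, not normalized, by Ensembl identifier. Per the labels, bcl2fastq 2.19, Trimmomatic, STAR 2.7.1, featureCounts and edgeR were used on GRCh38.p10. Strand setting and treatment of reads that match several genes are not given in the sources used here. Of 21386 identifiers, 21349 were found in GENCODE 29.

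The genes and lists were chosen with earlier results of these data known. Counts were tested in R 4.3.3 with edgeR 4.0.16 (TMM, filterByExpr, glmQLFit and glmQLFTest, Benjamini-Hochberg adjustment over all genes kept), within the groups compared or, for the difference of Dox effects, over 12 libraries. Named are the genes called in the shMCM7 comparison, in that difference or against parental Dox cells, the highest of each class, called list genes, NPAT and SLBP. Other genes named were chosen after their values were seen. ZCCHC6 and ZCCHC11 were matched by older symbol. Python 3.11.15 read sequences. The steps were tested on simulated data. Alternatives were DESeq2 1.42.0 (size factors and Wald test), other filters, 1 fit over 12 libraries, a replicate block, each library left out and, chosen after seeing the data, genes with few shared words and other rankings by level.

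The labels share replicate numbers between groups. Across genes, libraries with the same number deviated together from the mean of their group, with correlations of 0.338, 0.195 and 0.34 for A375 shMCM7 Dox and noDox and of 0.514, 0.488 and 0.531 for shMCM7 and parental noDox, which counts as pairing. For the other comparisons at least 1 pair was under 0.1. No library was left out. Depth is given with the results.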

Additional observations from a re-analysis of the deposited data

Results flagged for a closer look

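In A375, the effect of Dox differed between shMCM7 and parental cells for 16 histone genes by the test of the difference itself (edgeR, all 12 libraries), each higher in shMCM7 cells. Each difference also includes the change with Dox in parental cells. Of 42 histone genes tested there, 35 lay below 0 and 7 above, and 0 were called. The log2 differences of the H2A and H2B genes were 1.64 for HIST3H2A, 1.45 for HIST1H2BD, 1.39 for HIST2H2BF, 1.19 for HIST1H2AC, 1.18 for HIST1H2BE, 1.05 for HIST1H2BN, 0.93 for HIST1H2BK and 0.88 for HIST1H2BJ. Those of the H3 and H4 genes were 2.16 for HIST1H4I, 1.71 for HIST2H3D, 1.38 for HIST1H3E, 1.32 for HIST1H4H, 1.20 for HIST1H3H, 1.16 for HIST1H4K, 0.99 for HIST2H3PS2 and 0.89 for HIST4H4. The SEs ran from 0.194 for HIST1H2AC to 0.694 for HIST1H4I, and those of HIST1H4I and HIST2H3D rest on at most 37 counts in a library.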

How the results depend on the processing

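In A375 shMCM7 cells with Dox against noDox, 22 histone genes were up-regulated. The count was 22 with DESeq2's size factors and without a filter, 18 with DESeq2's Wald test, 19 with at least 10 counts in every library, 20 with all 12 libraries in 1 fit and 24 with the replicate block, which added HIST1H2BG and HIST1H3D and changed no other call in this comparison. It ran from 14 to 19 when a library was left out. For the difference of the Dox effects it was 16, with 15 to 19 under the alternatives (19 with the replicate block, 15 of them shared) and 11 to 17 without a library. DESeq2 gave no adjusted p for 7 histone genes there, for 18 in parental cells and for 5 without Dox. Against parental Dox cells it was 26, with 22 to 26 under the alternatives (24 with the replicate block) and 20 to 25 without a library. Counts of 0 in the other 4 comparisons stayed 0 in every fit, DESeq2 among the genes with an adjusted p. Chaperone genes down-regulated ran from 1 to 2 and variant genes up-regulated from 0 to 2 without a library. No log2 value of a named histone gene changed sign in the shMCM7 comparison, where the other filters were not checked by gene. Depth limits the genes under 0.1 CPM in A375 and all but 17 genes in A549.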

Other observations

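Some histone genes measured in A375 were listed at 0 counts in A549. HIST2H3PS2, an H3 gene at 0.45 to 1.25 CPM in the 12 A375 libraries, and HIST1H2AE, an H2A gene at 0.211 to 0.617 CPM, were at 0 in all 12 A549 libraries, where 3 counts stand at 0.128 to 0.167 CPM. HIST1H2AD and HIST1H3D were at 0 in A549 too, but at 0.0463 to 0.220 and 0.0727 to 0.275 CPM in A375 they are near that limit. HIST1H2BG, at 0.430 to 1.05 CPM in A375, had a count above 0 in 2 of the 12 A549 libraries. All 50-base words of HIST2H3PS2 occur in another gene. HIST1H2AD and HIST1H3D share exon bases with AL031777.3, a counted gene on the same strand. The part of read assignment in these zeros was not tested. Sequencing runs are not given in the sources used here. Cell line cannot be told apart in these levels from anything else that differed between the A375 and A549 libraries, such as depth.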
